A study of Mus musculus with 18 samples.

Results

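The genes described here are 37 interferon-stimulated genes and immune GTPase genes, chosen by name as 1 group and measured in mouse liver. A gene was taken as measured where at least 1 array probe carried its symbol and no other, and where several did, the probe with the highest mean signal over the 18 arrays stood for it. This left 35 of the 37, among 22180 genes with such a probe and 34472 probes in all. Ifi44, a gene induced by interferon, had no probe of its own, and the probe for the guanylate-binding protein Gbp2 also carried the symbol of its near copy Gbp2b. The 35 were 4 transcription factors, 3 sensors of viral RNA, 11 direct antiviral effectors, 6 feedback and modifier genes, 4 immunity-related GTPases (IRGs), 3 guanylate-binding proteins (GBPs), 3 antigen-processing genes and 1 chemokine.

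The arrays came from whole livers of male C57BL6 mice, which entered the experiment at 6 weeks of age and were killed at 18 weeks, after 12 weeks on a diet eaten freely. The low-fat diet supplied 10% of its energy as fat and the high-fat diet 45%. Each diet was given alone (control), with PFOS (perfluorooctane sulfonic acid) or with PFNA (perfluorononanoic acid) mixed into it, which makes 6 groups of 3 mice. Both compounds are persistent perfluoroalkyl acids that accumulate in the liver; PFOS ends in a sulfonic acid and PFNA in a carboxylic acid. No dose is stated in the labels, so a comparison of the compounds is a comparison of these diets and not of matched doses. The series asks how dietary fat alters what PFOS and PFNA do to the liver.

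Type I interferons switch on their target genes through transcription factors, STAT2 and IRF9 among them, that bind the interferon-stimulated response element (ISRE), and type II interferon (interferon gamma) acts at gamma-activated sites (GAS). In an uninfected liver these genes run at a basal level, in hepatocytes as well as in Kupffer cells and endothelium. The IRGs and GBPs are interferon-induced GTPases that coat and break the vacuoles of intracellular pathogens. Because RNA was taken from whole tissue, fewer cells of a type and less RNA per cell cannot be told apart in any difference below.

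Promoter windows from RefSeq (GRCm38.p6), running from 250 bases before to 50 bases after the gene start, were held for 28 of the 37 genes. The ISRE core, searched as GAAANNGAAA on both strands, was present in windows of 16 of these 28 genes (57.1%) and of 3.99% of all 27025 genes with a window. The GAS, searched as TTCNNNGAA on both strands, was present for 8 of the 28 (28.6%) and for 9.55% of all genes. A match is a description of the letters, not of a bound site. The windows of the 3 IRG genes that changed, of Ifit1 (the largest difference) and of Bst2 (the opposite direction) are shown because the results below turn on these genes. Letters in capitals are the ISRE and GAS matches and the rest is in lower case, and each window is written 5′ to 3′ on the strand of its gene.
Igtp, chr11:58199306-58199605, plus strand: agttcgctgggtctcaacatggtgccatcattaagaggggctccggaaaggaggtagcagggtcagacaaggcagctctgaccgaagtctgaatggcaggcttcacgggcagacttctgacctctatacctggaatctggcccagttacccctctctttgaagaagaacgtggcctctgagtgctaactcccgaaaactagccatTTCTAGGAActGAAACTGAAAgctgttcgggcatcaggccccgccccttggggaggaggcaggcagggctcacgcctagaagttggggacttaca
Irgm2, chr11:58214727-58215026, plus strand: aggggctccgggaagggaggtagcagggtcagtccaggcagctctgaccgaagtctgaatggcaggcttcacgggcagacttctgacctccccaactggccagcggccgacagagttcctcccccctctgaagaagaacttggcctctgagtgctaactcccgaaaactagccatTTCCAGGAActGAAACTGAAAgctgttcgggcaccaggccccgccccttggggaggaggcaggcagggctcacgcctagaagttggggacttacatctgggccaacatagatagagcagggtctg
Irgm1, chr11:48871371-48871670, minus strand: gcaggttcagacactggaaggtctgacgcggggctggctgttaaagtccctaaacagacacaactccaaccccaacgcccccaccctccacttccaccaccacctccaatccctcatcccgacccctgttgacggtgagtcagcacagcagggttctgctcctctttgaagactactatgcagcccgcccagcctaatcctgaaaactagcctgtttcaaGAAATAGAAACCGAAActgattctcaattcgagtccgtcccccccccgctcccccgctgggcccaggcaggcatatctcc
Ifit1, chr19:34640639-34640938, plus strand: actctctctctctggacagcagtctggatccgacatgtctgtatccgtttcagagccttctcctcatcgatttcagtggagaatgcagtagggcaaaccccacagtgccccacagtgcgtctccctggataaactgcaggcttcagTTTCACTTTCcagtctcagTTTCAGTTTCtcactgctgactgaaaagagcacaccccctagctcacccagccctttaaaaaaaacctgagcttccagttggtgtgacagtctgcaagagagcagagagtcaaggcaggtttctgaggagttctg
Bst2, chr8:71537423-71537722, minus strand: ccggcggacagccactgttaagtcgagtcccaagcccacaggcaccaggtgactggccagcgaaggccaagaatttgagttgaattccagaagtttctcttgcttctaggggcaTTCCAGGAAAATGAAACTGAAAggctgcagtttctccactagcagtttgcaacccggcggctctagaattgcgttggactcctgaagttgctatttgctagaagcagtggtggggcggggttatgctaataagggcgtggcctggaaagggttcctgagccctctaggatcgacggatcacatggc

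Igtp and Irgm2 are neighbouring genes on chromosome 11, and both windows hold a GAS followed by the same ISRE core, GAAACTGAAA. In Igtp the GAS, TTCTAGGAA, starts 45 bases before the gene start and the ISRE core 34 bases before it. In Irgm2 the GAS, TTCCAGGAA, starts 75 bases before the start and the ISRE core 64 bases before it. The Irgm1 window has no GAS match and 2 overlapping ISRE cores, GAAATAGAAA at 30 and GAAACCGAAA at 24 bases before the start. The 2 ISRE cores of Ifit1 lie on the opposite strand and so read TTTCACTTTC, at 104 bases, and TTTCAGTTTC, at 85 bases before the start. Bst2 holds the same GAS letters as Irgm2, TTCCAGGAA, which overlap the first of its 2 overlapping ISRE cores, GAAAATGAAA and GAAACTGAAA. Windows of Irgm2 and Bst2 thus share both motifs, while their mean signals lay on opposite sides of control in each of the 4 exposed groups, as given further on.

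The deposited values were read as log2 signal, on which a difference of 1 is a doubling, and were compared within a probe and never between probes. Array medians lay between 4.43 and 4.59 and the correlation of any pair of arrays between 0.975 and 0.991. On the first principal component, which held 17.9% of the variance, 5 arrays scored from 27.8 to 38.6 and the other 13 from -22.9 to -8.08. The 5 were all 3 arrays of high-fat PFOS, replicate 3 of low-fat PFOS and replicate 3 of high-fat PFNA, so that the last 2 stand apart from their own groups. Results are also given without those 2 arrays, which were chosen on their signals and for scores like those of high-fat PFOS, so values without them are a description and not a further test. All 7 hepatocyte markers read above the median of probe means. Mx1, Trim30a and Gbp6 had mean signals below that median, so their expression above background is not shown by these values.

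High-fat PFOS livers had lower signals than high-fat controls for most of these genes, and 3 of the 4 called were IRG genes. A gene was called changed where the limma test over all 34472 probes gave a Benjamini-Hochberg adjusted p under 0.05. By that rule Igtp, Irgm1, Irgm2 and Parp14 fell and none of the 35 rose, whereas 0.389% of all probes fell and 0.632% rose. The difference was below 0 for 32 of the 35 genes and for 51.8% of all probes, and the median difference was -0.61 against -0.01 for all probes. The 3 PFOS arrays lay wholly below the 3 control arrays for 25 of the 35 genes, against 8.68% of all probes, and wholly above for 2 (9.71% of probes). At an unadjusted p under 0.05 there were 24 lower genes (6.42% of probes) and 2 higher ones (7.12%).

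**Figure D1:**
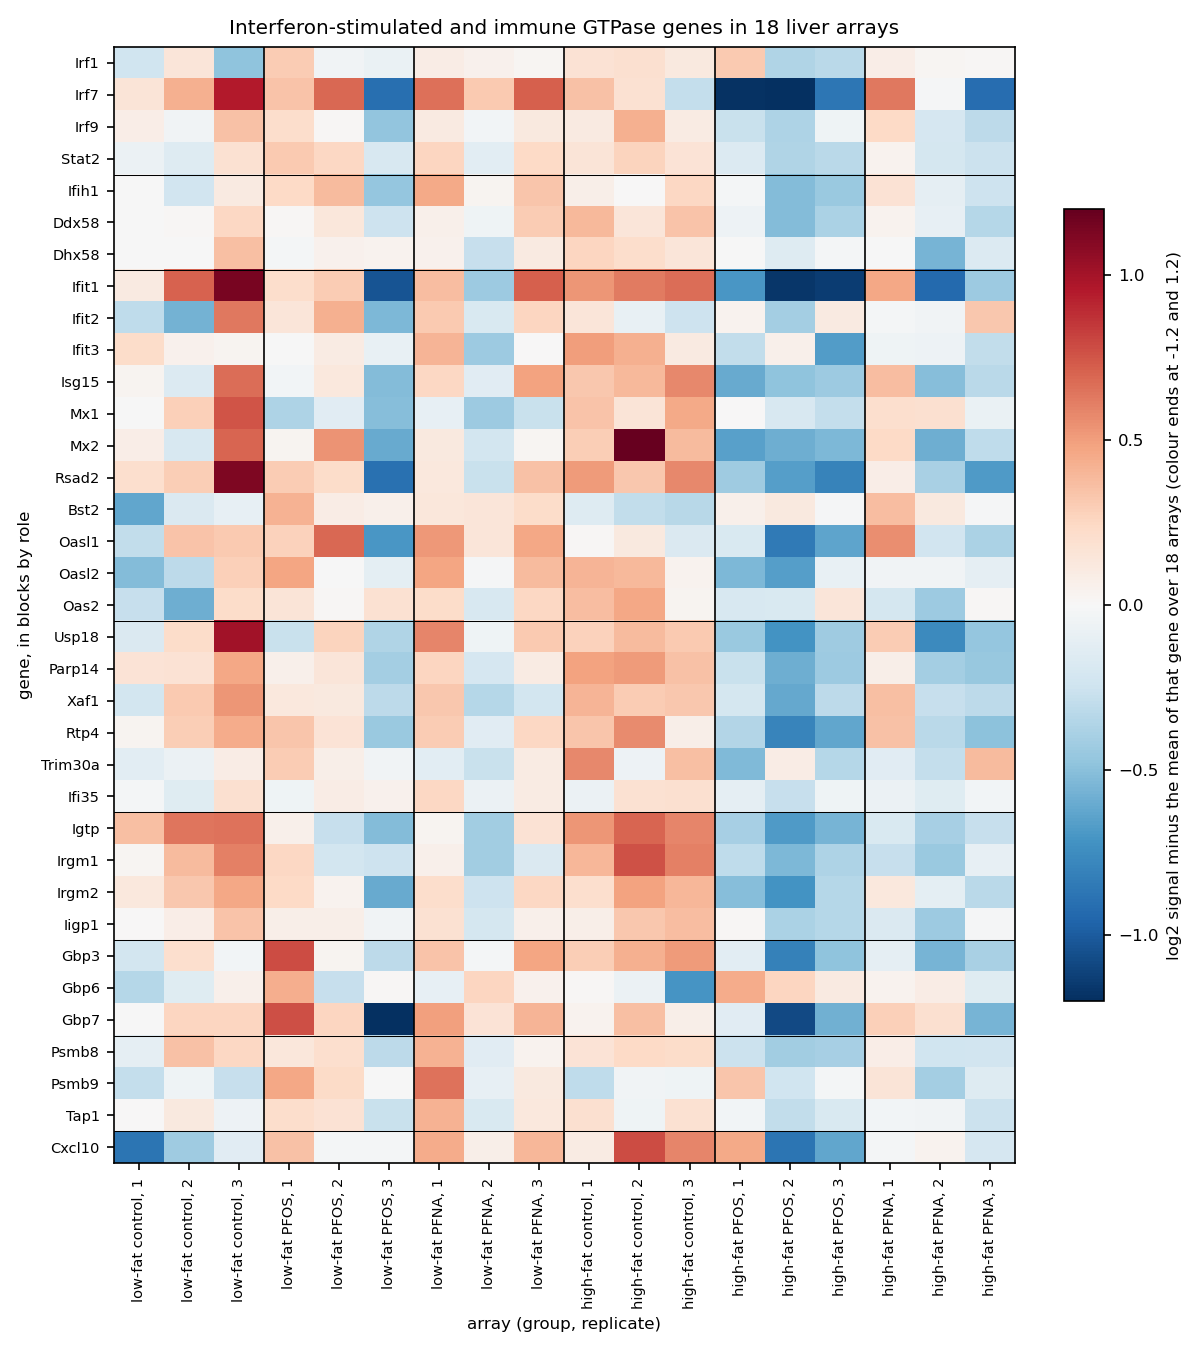
Log2 signal of each of the 35 genes (rows, in blocks by role) in each of the 18 arrays (columns), as the deviation from that gene's mean over the 18 arrays, with red above and blue below. Blue fills most of the 3 high-fat PFOS columns, replicate 3 of low-fat PFOS and the last 2 high-fat PFNA columns, and the Bst2 row is blue in the control columns of both diets.

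Igtp (IRGM3), a regulatory IRG that holds the effector IRGs inactive on the cell's own membranes, had the smallest p of the 35 genes in each of the 4 comparisons of an exposed group with its control. Its log2 signals were 7.80, 7.97 and 7.86 in high-fat controls, 6.87, 6.59 and 6.71 with PFOS and 7.09, 6.87 and 6.99 with PFNA. On the low-fat diet they were 7.63, 7.91 and 7.92 in controls, 7.33, 6.99 and 6.75 with PFOS and 7.30, 6.85 and 7.44 with PFNA. Every one of the 12 exposed arrays lay below every one of the 6 control arrays. On the high-fat diet the difference was -1.15 (SE 0.16, 95% interval -1.50 to -0.81) with PFOS, which is 45.0% of the control signal (limma adjusted p = 0.00351). PFNA on that diet gave -0.89 (SE 0.16), 53.8% of control (limma adjusted p = 0.0439). With low-fat feeding PFOS gave -0.80 (SE 0.16), 57.6% of control (limma adjusted p = 0.0460), and PFNA gave -0.62 (95% interval -0.97 to -0.28, limma adjusted p = 0.0916), which did not pass.

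Irgm1, a regulator of autophagy and of the other IRGs, had high-fat signals of 6.72, 7.08 and 6.92 in controls, 6.01, 5.78 and 5.95 with PFOS and 6.04, 5.87 and 6.22 with PFNA. All 6 exposed arrays were below all 3 controls. Irgm1 fell by 0.99 (SE 0.18, 50.2% of control, limma adjusted p = 0.0144) with PFOS, and the PFNA difference of -0.86 (SE 0.18) had a limma adjusted p of 0.0624. Low-fat signals were 6.34, 6.70 and 6.92 in controls, 6.57, 6.10 and 6.07 with PFOS and 6.38, 5.90 and 6.14 with PFNA, and both exposed groups overlapped the control. The low-fat differences were -0.41 with PFOS and -0.51 with PFNA, neither past the test.

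Irgm2, the remaining regulatory IRG, read 7.96, 8.24 and 8.15 in high-fat controls, 7.24, 7.04 and 7.41 with PFOS and 7.88, 7.64 and 7.43 with PFNA. The PFOS arrays were lowest and touched neither other group, and the PFNA arrays lay between. Irgm2 fell by 0.89 (SE 0.20, 54.1% of control, limma adjusted p = 0.0407) with PFOS, and the PFNA difference was -0.47 (limma adjusted p = 0.456). Low-fat signals were 7.88, 8.08 and 8.22 in controls, 7.99, 7.80 and 7.15 with PFOS and 7.97, 7.51 and 8.0 with PFNA. There the PFOS values spread widely because replicate 3 read 7.15. Iigp1 (IRGA6), an effector IRG that is loaded onto pathogen vacuoles, read 10.81, 11.06 and 11.11 in high-fat controls, 10.75, 10.36 and 10.40 with PFOS and 10.56, 10.30 and 10.72 with PFNA. Both exposed groups lay wholly below the controls, but the differences of -0.49 (limma adjusted p = 0.133) and -0.47 (0.293) did not pass.

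**Figure D2:**
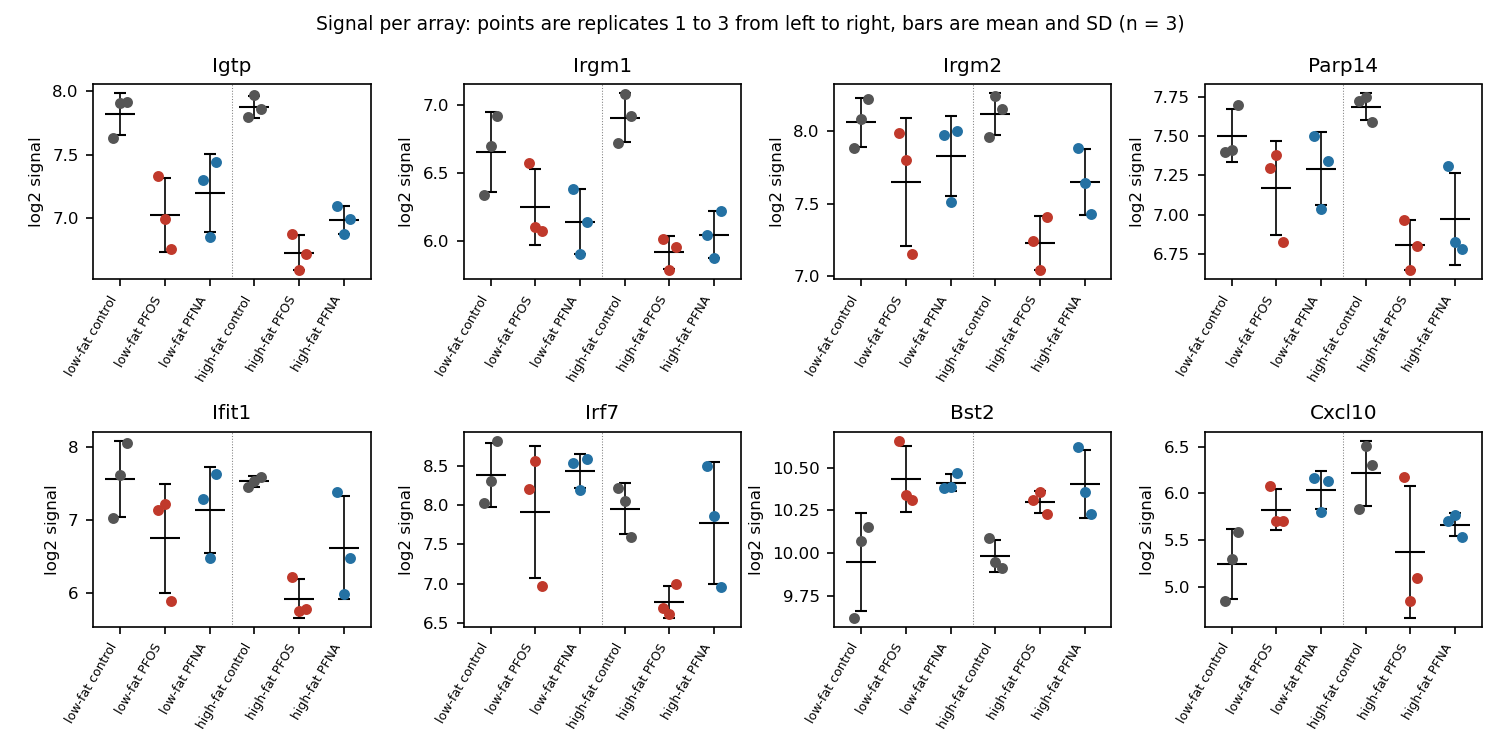
Log2 signal (y axis) of 8 genes in the 6 groups (x axis), with 1 point per array in replicate order and bars for the mean and SD (n = 3). The Igtp panel shows the 12 exposed arrays below the 6 control arrays, and the Bst2 panel the 12 exposed arrays above them.

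The call on Igtp in high-fat PFOS livers held under all 13 other settings tried, with a log2 difference from -1.23 to -1.09 and a limma adjusted p from 0.00100 to 0.0297. The other calls in that comparison were each lost when some single arrays were left out, and the cause was not tested. The share of all probes called in those fits is not given here, so the counts below are no result about these genes in particular. Without replicate 1, 2 or 3 of the high-fat controls, or replicate 2 or 3 of high-fat PFOS, the 4 called genes became 2, 1, 1, 1 and 2 respectively, and without replicate 1 of high-fat PFOS they stayed 4. Irgm1 was lost (limma adjusted p up to 0.0731) without control replicate 2 or 3 or PFOS replicate 2. Irgm2 was lost without any 1 of the 6 arrays (adjusted p from 0.0663 to 0.148), and Parp14 (0.0653 to 0.0953) without any of them but PFOS replicate 1. Without PFOS replicate 1, which was the high-fat PFOS array with the highest Cxcl10 signal, Cxcl10 was the fourth gene called. The Igtp call was also lost without any 1 of the 6 arrays in low-fat PFOS (adjusted p from 0.0542 to 0.180) and in high-fat PFNA (0.0905 to 0.154).

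Among the transcription factors, Irf7, the amplifier of type I interferon production, read 8.22, 8.05 and 7.59 in high-fat controls, 6.69, 6.62 and 7.0 with PFOS and 8.50, 7.86 and 6.96 with PFNA. The PFOS arrays were below every control, while the PFNA arrays ran from above to below them. The PFOS difference was -1.18 (SE 0.37, limma adjusted p = 0.136) and the PFNA difference -0.18 (limma adjusted p = 0.922). In low-fat feeding Irf7 read 8.03, 8.30 and 8.82 in controls, 8.21, 8.56 and 6.97 with PFOS and 8.53, 8.19 and 8.59 with PFNA, and the one low value was PFOS replicate 3.

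Stat2, a transcription factor of the type I signal, read 8.08, 8.19 and 8.09 in high-fat controls, 7.76, 7.56 and 7.60 with PFOS and 7.97, 7.71 and 7.67 with PFNA. Both exposed groups lay below the controls without overlap, with differences of -0.48 (limma adjusted p = 0.145) and -0.34 (0.489). The low-fat Stat2 differences were 0.14 with each compound, with overlap. Irf9, the DNA-binding subunit beside STAT2, differed by -0.44 and -0.30 on the high-fat diet. Irf1, which drives many interferon gamma targets, differed by -0.28 and -0.12. None of the 4 factors passed in any comparison with control, and 4 of 4 were below 0 in both high-fat groups.

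All 3 sensors of viral RNA, Ifih1 (MDA5), Ddx58 (RIG-I) and Dhx58 (LGP2), lay without overlap below control with PFOS on the high-fat diet. Ddx58 read 7.31, 7.06 and 7.26 in high-fat controls, 6.86, 6.40 and 6.54 with PFOS and 6.96, 6.82 and 6.58 with PFNA. Its differences were -0.61 (SE 0.15, limma adjusted p = 0.0630) with PFOS and -0.42 (0.353) with PFNA. The differences of Ifih1 were -0.44 and -0.17, and those of Dhx58 -0.27 and -0.45, none past the test. All 3 sensors overlapped control with either compound on the low-fat diet.

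Of the 11 direct antiviral effectors, 10 were below 0 with PFOS on the high-fat diet (51.8% of all probes) and 8 lay wholly below control (8.68% of probes). The largest difference of all 35 genes was that of Ifit1, which binds viral RNA that lacks the host cap. It read 7.45, 7.54 and 7.59 in high-fat controls, 6.22, 5.75 and 5.78 with PFOS and 7.38, 5.98 and 6.48 with PFNA. The controls were tight and all 6 exposed arrays lay below them, 1 of the PFNA arrays only just. The PFOS difference of -1.61 (SE 0.38, 95% interval -2.41 to -0.81) narrowly missed the threshold (limma adjusted p = 0.0508), and the PFNA difference was -0.91 (0.444). Ifit1 read 7.02, 7.62 and 8.06 in low-fat controls, 7.13, 7.22 and 5.88 with PFOS and 7.29, 6.48 and 7.63 with PFNA, with overlap in both cases.

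Rsad2 (viperin), an inhibitor of viral replication at the endoplasmic reticulum, read 6.59, 6.40 and 6.65 in high-fat controls, 5.65, 5.42 and 5.28 with PFOS and 6.16, 5.69 and 5.40 with PFNA. Isg15, a ubiquitin-like modifier, read 6.42, 6.48 and 6.67, 5.49, 5.61 and 5.66 and 6.46, 5.58 and 5.77 in the same 3 groups. For both genes the PFOS arrays were wholly below the controls, and 1 PFNA array of Isg15 reached into the control range. The PFOS differences were -1.10 (limma adjusted p = 0.0797) for Rsad2 and -0.94 (0.0667) for Isg15.

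The antiviral GTPase Mx2 read 5.47, 6.45 and 5.56 in high-fat controls, 4.53, 4.59 and 4.64 with PFOS and 5.42, 4.59 and 4.87 with PFNA. The difference of -1.24 with PFOS (limma adjusted p = 0.0536) did not pass. Mx1, its relative, had a signal near the bottom of the scale: 3.17, 3.46 and 3.93 in low-fat controls, 2.81, 3.04 and 2.67 with PFOS and 3.08, 2.74 and 2.91 with PFNA. It was one of the few genes with a larger difference on the low-fat diet, -0.68 (limma adjusted p = 0.104) and -0.61 (0.116), than on the high-fat diet, -0.47 and -0.21. The oligoadenylate synthetase family members Oasl2 and Oas2 were above control on the low-fat diet (0.30 and 0.33 with PFOS, 0.46 and 0.30 with PFNA) and below it on the high-fat diet (-0.71 and -0.37 with PFOS, -0.34 and -0.50 with PFNA), none past the test. Ifit2 had differences from -0.02 to 0.21. For Ifit3, which acts beside Ifit1, the high-fat differences were -0.65 with PFOS and -0.48 with PFNA, and for Oasl1 they were -0.54 and -0.01, none past the test.

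Bst2 (tetherin), which holds budding virus on the cell surface, lay on the other side. Its signals were 9.62, 10.07 and 10.15 in low-fat controls, 10.66, 10.34 and 10.31 with PFOS and 10.38, 10.39 and 10.47 with PFNA. On the high-fat diet they were 10.09, 9.95 and 9.91 in controls, 10.31, 10.36 and 10.23 with PFOS and 10.62, 10.36 and 10.23 with PFNA. All 12 exposed arrays lay above all 6 control arrays. The differences were 0.49 (SE 0.15) and 0.47 on the low-fat diet and 0.32 and 0.42 on the high-fat diet, for PFOS and PFNA in turn, with limma adjusted p-values of 0.180, 0.156, 0.357 and 0.332, so none passed. Bst2 and Gbp6 were the 2 genes above 0 in all 4 exposed groups, against 16 genes below 0 in all 4. Both compounds on a diet were compared with the same control arrays, so these signs are not independent. The share of all probes with such signs is not given here.

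The feedback and modifier genes had 6 of 6 differences below 0 in both high-fat groups. Parp14, an ADP-ribosyl transferase of the interferon response, read 7.72, 7.75 and 7.59 in high-fat controls, 6.97, 6.65 and 6.80 with PFOS and 7.31, 6.83 and 6.78 with PFNA. The exposed arrays did not overlap the controls, and Parp14 fell by 0.88 (SE 0.18, 54.3% of control, limma adjusted p = 0.0255) with PFOS. Its difference with PFNA was -0.71 (0.140). Usp18, which removes ISG15 and damps the type I receptor, read 7.72, 7.82 and 7.76 in high-fat controls, 7.0, 6.73 and 7.02 with PFOS and 7.75, 6.68 and 6.98 with PFNA. Its PFOS arrays lay below the controls and its first PFNA array among them, and the differences were -0.85 (0.161) and -0.63 (0.482). The differences of Rtp4 and Xaf1 with PFOS were -0.91 (0.0623) and -0.73 (0.126), all adjusted p-values from limma. Trim30a, a TRIM family protein, differed by -0.55 with PFOS and -0.31 with PFNA on that diet, and Ifi35 by -0.25 and -0.18, none past the test.

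Of the 3 measured GBPs none passed the test in any comparison with control. Gbp3 read 5.60, 5.73 and 5.81 in high-fat controls, 5.17, 4.49 and 4.82 with PFOS and 5.19, 4.74 and 4.91 with PFNA, with both exposed groups below the controls. The differences were -0.89 (limma adjusted p = 0.0738) and -0.77 (0.242), and on the low-fat diet they were 0.18 and 0.28. Gbp7 read 7.56, 7.88 and 7.59 in high-fat controls, 7.38, 6.44 and 6.94 with PFOS and 7.81, 7.71 and 6.96 with PFNA, and differed by -0.76 and -0.18. Gbp6, whose signal was below the median of probe means, differed by 0.52 and 0.25. Of the antigen-processing genes, the immunoproteasome subunit Psmb8 read 7.55, 7.63 and 7.61 in high-fat controls, 7.13, 6.97 and 6.99 with PFOS and 7.47, 7.15 and 7.16 with PFNA. Its arrays lay below control in both exposed groups, with differences of -0.57 (limma adjusted p = 0.117) and -0.34 (0.542). The peptide transporter subunit Tap1 overlapped control (-0.28 and -0.22), as did Psmb9, another immunoproteasome subunit (0.16 and -0.01). Psmb9, Tap1 and Psmb8 are nevertheless neighbours on chromosome 17.

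Cxcl10, a chemokine that draws T cells and natural killer cells, had opposite differences on the 2 diets. It read 4.85, 5.30 and 5.59 in low-fat controls, 6.08, 5.70 and 5.70 with PFOS and 6.17, 5.80 and 6.13 with PFNA. On the high-fat diet it read 5.83, 6.51 and 6.31 in controls, 6.18, 4.85 and 5.10 with PFOS and 5.70, 5.77 and 5.53 with PFNA. Exposed arrays were all above the low-fat controls; with PFNA all were below the high-fat controls, and 1 PFOS array stayed among them. The differences were 0.58 and 0.79 on the low-fat diet and -0.84 and -0.55 on the high-fat diet, for PFOS and PFNA in turn, and none passed (limma adjusted p from 0.156 to 0.537).

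**Figure D3:**
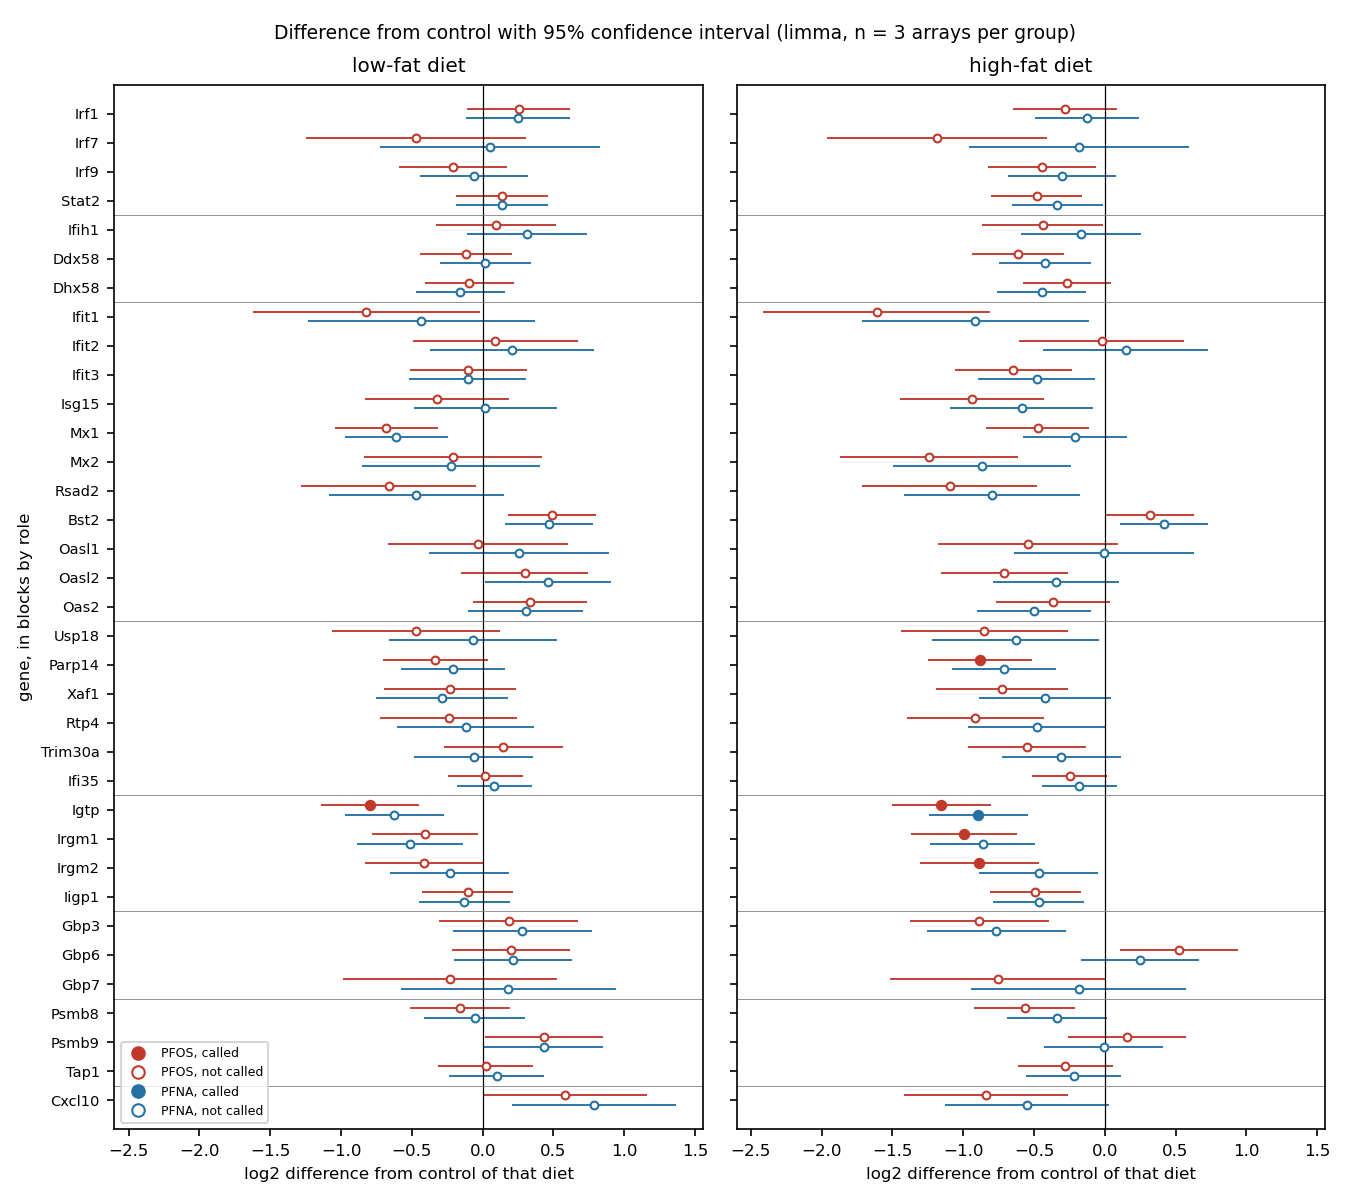
Log2 difference from the control of the same diet (x axis) for each of the 35 genes (y axis, in blocks by role), low-fat left and high-fat right, with 95% intervals from limma; filled points passed the test. On the high-fat side 32 of 35 PFOS points lie below 0, and the filled points are Igtp, Irgm1, Irgm2 and Parp14 for PFOS and Igtp for PFNA.

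PFNA on the high-fat diet gave differences of the same sign for most genes. Of the 35 genes, 1 fell and none rose, against 0.0261% and 0.0870% of all probes. The difference was below 0 for 32 genes (51.5% of probes), with a median of -0.42 (-0.01 over all probes). There were 18 genes wholly below control (6.89% of probes) and 1, Bst2, wholly above (6.83%), and 16 genes were lower at an unadjusted p under 0.05 (4.86% of probes). The PFOS and PFNA comparisons share the 3 control arrays, so their likeness is not independent evidence.

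With PFOS on the low-fat diet 1 of the 35 genes, Igtp, fell and none rose, against 0.107% and 0.281% of all probes. The median difference was -0.11 (-0.02 over all probes), and 21 of the 35 differences were below 0 (18517 of 34472 probes). At an unadjusted p under 0.05, 5 genes were lower (2048 of 34472 probes) and 3 higher (6.01% of probes). Igtp, Mx1 and Parp14 lay wholly below control (3 genes, 8.12% of probes) and Bst2, Psmb9 and Cxcl10 wholly above (3 genes, 7.58% of probes). With PFNA none was called by limma (0.566% of all probes were, in either direction), 3 were lower (6.21% of probes) and 4 higher (6.66%) at an unadjusted p under 0.05, and the median was 0.02 (-0.01 over all probes). Igtp and Mx1 lay wholly below control (2 genes, 9.32% of probes) and Bst2 and Cxcl10 wholly above (2 genes, 10.1% of probes).

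Between the controls of the 2 diets limma called none of the 35 genes (0.0029% of all probes were called). At an unadjusted p under 0.05 there were 3 higher genes (3.21% of probes), Cxcl10, Oas2 and Oasl2, and 0 lower (3.24%). Cxcl10 differed by 0.97 (SE 0.27, 95% interval 0.39 to 1.55, limma adjusted p = 0.573), Oas2 by 0.50 and Oasl2 by 0.46. Cxcl10 and Gbp3 were the 2 genes whose high-fat control arrays lay wholly above the low-fat ones (4.84% of probes). The median difference was 0.09 (-0.01 over all probes).

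PFNA and PFOS were compared within each diet for all 35 genes, which makes 70 pairs, with p-values adjusted over all probes. On the low-fat diet limma called none (0 of all probes), and none had an unadjusted p under 0.05 in either direction (2.1% of probes were higher and 1.82% lower). The smallest p-values belonged to Usp18 (PFNA minus PFOS 0.40, 95% interval -0.19 to 1.0), Isg15 (0.34, -0.16 to 0.85) and Irf7 (0.52, -0.25 to 1.30). On the high-fat diet limma again called none (0.0029% of probes), and 2 genes were higher with PFNA (3.49% of probes) and 0 lower (3.76%) at an unadjusted p under 0.05. Irf7 differed by 1.0 (95% interval 0.23 to 1.78, limma adjusted p = 0.654) and Irgm2 by 0.42 (0.00 to 0.84, 0.688). PFNA arrays lay wholly above PFOS arrays for 2 genes, Irgm2 and Psmb8 (1767 of 34472 probes). They lay wholly below for 1 gene, Gbp6 (1773 of 34472 probes). The median difference was 0.22 over the 35 genes and -0.01 over all probes. For Igtp the interval ran from -0.09 to 0.61 and for Ifit1 from -0.10 to 1.50. Leaving out the 2 arrays that stand apart took away the high-fat PFNA array whose score was like those of high-fat PFOS, a choice that favours a wider difference here, and the Irf7 difference was then 1.41.

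Whether an exposure acted differently on the 2 diets was tested by the diet by compound interaction. Limma called none of the 35 genes for PFOS or PFNA (0 of all probes in both), with 11 genes lower for PFOS (3.26% of probes) and 5 for PFNA (2.73%) at an unadjusted p under 0.05. Cxcl10 had the smallest p in both, -1.42 (95% interval -2.24 to -0.60, limma adjusted p = 0.758) for PFOS and -1.34 (-2.15 to -0.52, 0.942) for PFNA. It was followed by Oasl2 (-1.01) and Gbp3 (-1.07) for PFOS and by Gbp3 (-1.05) and Oas2 (-0.80) for PFNA. The median interaction was -0.51 for PFOS (0.02 over all probes) and -0.35 for PFNA (0.00), and 9 genes, Irf1, Stat2, Ifih1, Oasl2, Oas2, Ifi35, Gbp3, Tap1 and Cxcl10, were above control on the low-fat and below it on the high-fat diet with both compounds. Both interactions use the same control arrays, so their likeness and the sharing of these 9 genes are not independent evidence. The share of all probes with this change of sign is not given here. For Igtp the interaction was -0.36 (-0.85 to 0.14) with PFOS and -0.27 (-0.76 to 0.22) with PFNA.

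The diets were also set against each other within each compound. Under PFOS limma called none of the 35 genes (0 of all probes), 8 were lower on the high-fat diet at an unadjusted p under 0.05 (3.91% of probes), and the median was -0.36 (0.01 over all probes). Irf7 differed by -1.14 (limma adjusted p = 0.613), Gbp3 by -0.64 and Stat2 by -0.41. Leaving out the 2 arrays took away the low-fat PFOS array whose score was like those of high-fat PFOS, which again favours a wider difference, and the Irf7 difference was then -1.61. Under PFNA limma called none (0 of all probes), 1 gene, Gbp3 at -0.62, was lower (2.28% of probes) and 1, Mx1 at 0.37, higher (1.9%) at an unadjusted p under 0.05, and the median was -0.24.

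Single livers differed across the whole group of genes. In low-fat PFOS, replicate 3 had the lowest signal of its group for 30 of the 35 genes (34.9% of all probes). In low-fat PFNA, replicate 2 was lowest for 32 (34.2% of probes), and in high-fat PFOS, replicate 2 for 26 (32.7%). In low-fat controls, replicate 3 was highest for 27 (35.5%), and in high-fat PFNA, replicate 1 for 26 (34.1%). Taking for each array the median deviation of the 35 genes from their means, low-fat PFOS replicate 3 was at -0.31 while the other arrays of its group were at 0.21 and 0.12. The high-fat PFOS arrays were at -0.19, -0.52 and -0.37, and the high-fat controls at 0.28, 0.32 and 0.22.

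The 10 measured targets of PPARA, the nuclear receptor of fatty acid oxidation, were read in the same arrays, and their median deviation was from 0.46 to 0.98 in high-fat PFOS, 0.48 in low-fat PFOS replicate 3 and 0.51 in high-fat PFNA replicate 3, and from -0.50 to -0.06 in the other 13 arrays. The acyl-CoA thioesterase Acot1 read 8.35, 8.64 and 8.85 in high-fat controls, 10.80, 11.42 and 11.74 with PFOS and 10.12, 9.96 and 11.17 with PFNA. With PFOS on the high-fat diet 5 of the 10 PPARA targets rose, against 0.632% of all probes. The match was not complete: high-fat PFNA replicate 2 and low-fat PFNA replicate 2, at -0.23 and -0.13 for the 35 genes, were at -0.06 and -0.34 for the PPARA targets. The 7 measured targets of CAR, the nuclear receptor of drug metabolism, were above 0 in all 12 exposed arrays (0.15 to 0.74) and below it in all 6 controls (-2.75 to -0.28). The part of either receptor in the differences described here was not tested.

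**Figure D4:**
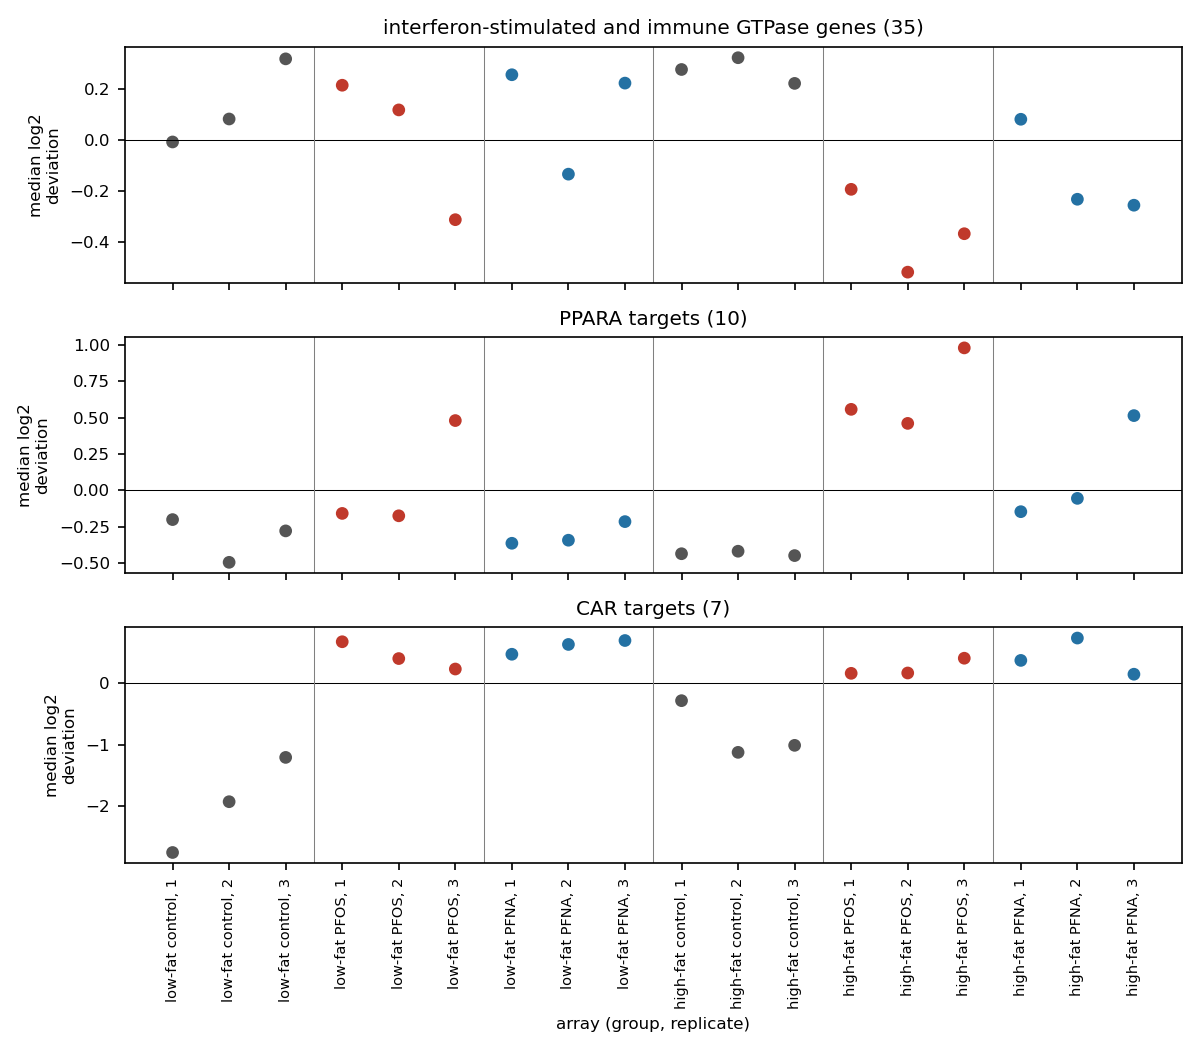
Median log2 deviation from the gene means (y axis) in each of the 18 arrays (x axis) for the 35 interferon-stimulated and immune GTPase genes, 10 PPARA targets and 7 CAR targets. The 35 genes are at -0.31 and the PPARA targets at 0.48 in low-fat PFOS replicate 3, and the CAR targets are above 0 in every exposed array.

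Without the 2 arrays that stand apart, limma called 12 of the 35 genes lower in high-fat PFOS livers, where 1.13% of all probes were lower. These were Irf7, Ddx58, Ifit1, Isg15, Mx2, Rsad2, Parp14, Rtp4, Igtp, Irgm1, Irgm2 and Gbp3, and Ifit1 at -1.61 then had a limma adjusted p of 0.0176. The 6 arrays of that comparison were all kept, so its differences were the same, and the estimated spread changed with the removal of 2 arrays chosen for lying far from their own groups. In high-fat PFNA livers, Igtp (-0.90, limma adjusted p = 0.0412) and Irgm1 (-0.95, 0.0495) were called lower in that fit without both arrays, where 0.128% of all probes were, whereas leaving out replicate 3 of high-fat PFNA alone left no gene called. In low-fat PFOS livers the Igtp difference was then -0.66 (limma adjusted p = 0.0904) and no gene was called, against 1.32% of all probes.

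The genes around this group were read from lists of the pathway. With PFOS on the high-fat diet, limma called none of 51 other type I interferon-stimulated genes, with 16 lower at an unadjusted p under 0.05 (6.42% of all probes), a median of -0.28 and 15 wholly below control (8.68% of probes). The same 6.42% of all probes is the background of the other counts of lower genes in that comparison, and 7.12% that of the counts of higher genes. Cmpk2, a nucleotide kinase, differed by -1.09 (limma adjusted p = 0.0531) and Ifitm3, which blocks viral entry, by -0.99 (0.0558). None of 11 other interferon-inducible GTPases was called, with 3 lower and 1 higher at an unadjusted p under 0.05 and a median of -0.12. The lowest difference among them was that of Gbp10, -1.54 (limma adjusted p = 0.0954). Of 15 other class I antigen-presentation genes none was called and 5 were lower at an unadjusted p under 0.05, with the chaperone Calr at -0.54 (0.0676). The interferons and their receptors, 22 genes of which 11 had signals below the median of probe means, gave no call by limma and none at an unadjusted p under 0.05, with a median of -0.02. Among 24 genes of interferon signal transduction limma called none with PFOS on the high-fat diet, 4 were lower and 1 higher at an unadjusted p under 0.05, and the median was -0.08.

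Low-fat PFOS livers differed in 1 of those 24, where 0.281% of all probes rose. The RNA sensor Tlr3 rose by 0.85 (SE 0.17, limma adjusted p = 0.0387), and its difference with PFNA was 0.75 (0.0519). Of the 11 other GTPases 1, F830016B08Rik, fell by 0.84 (SE 0.17, limma adjusted p = 0.0332) with PFNA on the low-fat diet. There 0.566% of all probes were called in either direction. The differences of F830016B08Rik were -0.70 with PFOS on that diet and -0.47 and -0.56 with PFOS and PFNA on the high-fat diet. Its signals were 8.81, 8.45 and 8.49 in low-fat controls and 7.84, 7.90 and 7.50 with PFNA, without overlap. Of 13 genes of the interferon gamma and class II response none was called by limma in any exposed group. At an unadjusted p under 0.05, 2 were lower with PFNA on the high-fat diet (4.86% of all probes) and 0 in either direction in the other 3 exposed groups.

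Markers of immune and other liver cells were set beside these differences. With PFOS on the high-fat diet limma called none of 11 Kupffer cell, 8 T cell, 8 natural killer cell, 5 plasmacytoid dendritic cell, 6 conventional dendritic cell, 6 B cell, 7 neutrophil, 8 endothelial, 8 stellate cell or 7 hepatocyte markers. At an unadjusted p under 0.05, 2 T cell, 1 natural killer cell, 2 stellate cell and 2 hepatocyte markers were lower and 1 plasmacytoid dendritic cell marker was higher. The median differences were -0.05 for Kupffer cells, -0.27 for T cells, -0.11 for natural killer cells, -0.08 for plasmacytoid dendritic cells, -0.05 for endothelium, -0.42 for stellate cells and -0.17 for hepatocytes. The mean log2 signal of the 8 T cell markers, 5 of which were below the median of probe means, ran from 4.26 to 4.44 in high-fat PFOS and from 4.49 to 4.70 in high-fat controls, without overlap. That of the 7 hepatocyte markers ran from 12.36 to 12.49 and from 12.61 to 12.75, also without overlap. The 5 plasmacytoid dendritic cell markers lay above control, 4.85 to 5.07 against 4.46 to 4.65, although 4 of their differences were below 0. The mean of the 11 Kupffer cell markers ran from 7.33 to 7.77 in high-fat PFOS and from 6.90 to 8.06 in high-fat controls. The Kupffer cell median on the low-fat diet was 0.47 with PFOS and 0.61 with PFNA, where Bst2 and Cxcl10 were above control, with 0 markers called by limma and 4 and 6 of the 11 higher at an unadjusted p under 0.05 (6.01% and 6.66% of all probes). This was not particular to Kupffer cells. The endothelial medians were 0.32 and 0.42, with 4 and 7 of the 8 markers higher by the same rule. The B cell medians were 0.16 and 0.42, with 1 and 3 of the 6 higher. Hepatocyte medians were -0.31 and -0.10. The part of any cell type in these differences was not tested.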

How the data were processed

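Liver RNA of 18 mice was hybridised to a gene-level array after Trizol extraction and biotin labelling, per the labels' protocols. The authors deposited 1 value per probe and array. The submitters' processing notes name Transcriptome Analysis Console, without a version. The deposited values were read as log2 signal from their range (0.91 to 14.01), although the base of the logarithm is not named. How background, normalization and summarization were handled is not given in the sources used here, and no such step was added. An error in the log base would rescale every difference and leave its sign. Probes were named by the platform's probe-to-gene table, in which 23521 had 1 gene symbol, 1814 several and 9137 none.

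All 34472 probes were fitted in limma 3.58.1 (R 4.3.3) with 1 mean per group over the 18 arrays, which left 12 residual degrees of freedom and 5.21 prior ones. Moderated limma p-values were adjusted by Benjamini-Hochberg over all probes in each of 11 contrasts, with a threshold of 0.05, and intervals are at 95%. The p-values measure the spread between the mice, which the labels call biological replicates, and 3 arrays per group limit the precision. The scripts were tested on simulated data.

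The genes and all lists were chosen with earlier results of these data known, so no count over a list is independent evidence. Array values, differences or both were given for the genes called in any contrast and the 3 with the smallest p in each. Fixed examples of each role were treated likewise. Not every gene was given in every comparison. Ifit2, Rtp4, Xaf1, Gbp6, Gbp7, Psmb9, Ifih1, Dhx58, Irf9, Ifit3, Oasl1, Trim30a and Ifi35 were named in addition or to complete a role. From the pathway lists, some called genes or genes with a small p were named as examples. No gene was named from some lists and comparisons. A median deviation is the median over a list of each gene's signal minus its mean over the 18 arrays.

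Replicate numbers are shared across groups in the labels. Of 45 same-numbered pairs of arrays, 3 had deviations from the group means correlated above 0.1 (median r -0.00, range -0.07 to 0.42), so the numbers were not taken to pair the mice. Alternatives were quantile normalization, a fit to the compared groups alone, only probes above the median signal, the mean of all probes of a gene, the replicate number as a block, trended and robust variances, and each array left out in turn. Leaving out the 2 arrays that stand apart was added after seeing the data. Promoter windows of 300 bases came from RefSeq (GRCm38.p6). The probe shared by Gbp2 and Gbp2b was kept out of all counts.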

Additional observations from a re-analysis of the deposited data

How the results depend on the processing

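The median difference of the 35 genes stayed within 1 pooled SD of replicates under every setting tried, at -0.68 to -0.54 for high-fat PFOS, -0.50 to -0.32 for high-fat PFNA, -0.20 to 0.00 for low-fat PFOS and -0.08 to 0.11 for low-fat PFNA. The counts of called genes moved more, and the cause was not tested. Calls over all probes moved too: without the 2 arrays that stand apart, 1.13% were lower with high-fat PFOS, against 0.389% in the main fit. That share is not given here for the other settings, so these counts are no result about these genes in particular. Only Ifi35 had more than 1 probe, so the mean of all probes left the other differences unchanged. That test ran over 22180 genes and not 34472 probes. For high-fat PFOS, 4 genes became 9 with the compared groups alone, 11 of 32 tested with only probes above the median signal, 9 with the mean of all probes, 7 with trended and robust variances and 12 without the 2 arrays that stand apart, and leaving out 1 array gave 1 to 4. For high-fat PFNA, 1 gene became 0 with the compared groups alone, 2 with probes above the median signal, 2 with the mean of all probes, 2 with trended and robust variances, 2 without the 2 arrays, and 0 to 0 with 1 array left out. For low-fat PFOS, 1 gene became 0 with the compared groups alone, 0 without the 2 arrays and 0 to 0 with 1 array left out. For low-fat PFNA, 0 became 1, Igtp, with probes above the median signal. Without the 2 arrays 0 became 1 for PFNA against PFOS on the high-fat diet and 3 for the diets under PFOS. Calls over all probes rose there too, from 0.0029% to 1.48% and from 0 to 2.22%. In these comparisons the choice of those arrays favours a wider difference. With the replicate number as a block, which the data do not show to pair the mice, the counts were 0 for low-fat PFOS, 0 for high-fat PFNA and 3 for high-fat PFOS, and 0 elsewhere. Of the values of single named genes under these settings, 488 kept direction and side of the threshold, 32 lost the call, 7 gained it and 0 changed sign. Quantile normalization moved the median of all probes by at most 0.02. Signals near the floor (Mx1, Trim30a, Gbp6) limit those 3 genes.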

Other observations

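The probe shared by Gbp2 and Gbp2b read 5.91, 6.22 and 5.99 in high-fat controls, 5.70, 5.51 and 5.65 with PFOS and 5.19, 5.59 and 5.32 with PFNA, so both exposed groups lay below the controls without overlap. Its differences were -0.42 and -0.67 (limma adjusted p = 0.435 and 0.298), and which of the 2 genes the signal came from is not known. On the low-fat diet the differences were 0.05 with PFOS and 0.27 with PFNA.

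Of 19 targets of NF-kB and IL-6, which make up the acute phase response of the liver, 1 fell with PFOS on the high-fat diet (0.389% of all probes fell). It was the neutrophil chemokine Cxcl1. Its signals were 6.44, 7.11 and 7.27 in high-fat controls, 5.78, 5.61 and 5.92 with PFOS and 5.91, 5.40 and 5.96 with PFNA. The difference was -1.17 (SE 0.23, limma adjusted p = 0.0255) with PFOS and -1.18 (0.0550) with PFNA. The median over the 19 genes was -0.39 with PFOS and -0.36 with PFNA, with 17 of 19 below 0 in each (51.8% and 51.5% of all probes). Between the 2 control groups the same genes were higher on the high-fat diet in 18 of 19, with a median of 0.42, 8 higher at an unadjusted p under 0.05 (3.21% of probes), 10 without overlap (4.84%) and no call by limma. The mean log2 signal of the list was 7.69 in low-fat controls, 8.38 in high-fat controls, 7.81 with PFOS and 7.80 with PFNA on the high-fat diet, so the high-fat controls stood above the other 3 groups. On the low-fat diet the medians were 0.17 and 0.00, with no call by limma.

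Ly6d, one of the 5 plasmacytoid dendritic cell markers used here, read 8.28, 6.20 and 6.84 in high-fat controls, 9.01, 9.30 and 10.00 with PFOS and 5.72, 6.50 and 9.02 with PFNA. In low-fat PFOS it read 6.04, 6.99 and 9.25. Its 5 highest values were thus in the 5 arrays with high scores on the first component, while Siglech, the defining marker of that cell type, read 4.24 to 4.68 in the 3 high-fat PFOS arrays and 4.49 to 4.63 in the high-fat controls.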
